A study of Homo sapiens with 6 samples.

Results

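The genes of cholesterol and fatty acid synthesis were examined in HT29 cells, a human colorectal adenocarcinoma line, after knockdown of ALDOA, the glycolytic enzyme aldolase A. The genes were chosen by symbol, as enzymes of the mevalonate, sterol and fatty acid pathways together with the regulators that control them, and not by their levels. There were 33 of them among the 28278 genes listed, and all 33 had a row in the count files. Of these, 32 were tested. FDFT1, the squalene synthase at the entry to the sterol branch, was listed at 0 in all 6 libraries and was not tested. Whether the authors' annotation and counting covered every listed gene is not given in the sources used here, so a gene listed at 0 in all libraries is not read as absent from the cells.

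RNA-Seq was performed on 3 libraries of cells transfected with siRNA against ALDOA (siALDOA) and on 3 libraries of cells given a scrambled siRNA (siControl). RNA was taken 48 h after transfection in both groups, which shared the parental HT29 line and carried no other change named in the labels. The labels call the 3 libraries of each group biological replicates, and do not give the sequence of the ALDOA siRNA, so loss of ALDOA and other actions of that siRNA cannot be told apart. All cells came from 1 cell line.

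Totals ranged from 27277538 to 33237914 counts per library, and ribosomal RNA genes took 7.71% to 17.4% of them. By a mean chi-square per gene, with ribosomal RNA genes kept in, 1 library of each group stood apart. Ribosomal RNA genes took 13.1% of siALDOA replicate 1, beside 7.71% and 8.11% of replicates 2 and 3. They took 8.15% of siControl replicate 3, beside 17.4% and 15.3% of replicates 1 and 2. The part of these shares in the chi-square was not tested. The mean chi-square per gene of siALDOA replicate 1 against replicates 2 and 3 was 39.8 and 34.8, beside 5.09 between the latter, and that of siControl replicate 3 against replicates 1 and 2 was 91.9 and 58.8, beside 11.5 between them. Calls of the genes named below that were lost without either library are given with the gene. Levels are given in CPM, which are counts divided by the library total and scaled with the TMM normalization factors. ALDOA stood at 592, 637 and 668 CPM in siControl and at 283, 305 and 280 CPM in siALDOA. The log2 fold change of ALDOA was -1.13 ± 0.060 (SE, n = 3 per group) with an adjusted p of 6.95e-11 in edgeR's quasi-likelihood test. Of 10 markers of colon epithelium, 9 were tested, their summed level was 9471 to 9802 CPM in siALDOA and 10035 to 10595 CPM in siControl, and LGALS4 was listed at 0 in all 6 libraries, with the same limit as FDFT1. KRT19 was higher (adjusted p < 0.05) and KRT18 lower in siALDOA. Markers of blood, fibroblast and endothelial cells summed to 12.8 to 17.9 CPM and 1.90 to 2.84 CPM, with CD3E, TYROBP and COL1A2 at 0 in every library, and most of the blood marker sum was CD14, which was higher in siALDOA (log2 fold change 0.32, adjusted p = 0.0485). The part of these marker differences in the results below was not tested. In bulk RNA, fewer cells of a type and less RNA per cell cannot be told apart.

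Cholesterol is built from acetyl-CoA. The mevalonate enzymes make the isoprenoid farnesyl diphosphate, a pair of these is joined into squalene, and the sterol enzymes close the rings and trim the product to cholesterol. The transcription factors SREBF1 and SREBF2 switch on the genes of both pathways. They are made as membrane-bound precursors, which SCAP carries to the Golgi for cleavage when sterols are scarce. When sterols are plentiful, INSIG1 and INSIG2 hold SCAP in the endoplasmic reticulum. SREBF2 acts mainly on cholesterol genes and SREBF1 mainly on fatty acid genes, and INSIG1 is itself a target of both.

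Results showed that 5 of the 32 tested genes differed between siALDOA and siControl at an adjusted p below 0.05. Those higher in siALDOA were INSIG1, the sterol-sensing brake, MVD and FDPS, both mevalonate enzymes, and TM7SF2, a sterol reductase. The gene lower in siALDOA was SQLE, the squalene epoxidase that starts the conversion of squalene to sterols. The 5 genes made up 15.6% of the 32, beside 9.66% of all 15307 genes tested. The 4 higher genes were 12.5% of the 32, beside 4.36% of all genes called higher, and the single lower gene was 3.13%, beside 5.29%. Without siALDOA replicate 2, siControl replicate 2 or siControl replicate 3, INSIG1 was the 1 gene still called higher, or 3.13% of the 32, beside 3.03%, 2.32% and 2.35% of all genes called higher in those fits. At the unadjusted P of 0.01 the same 5 genes passed, where 12.5% of all genes did. The groups did not overlap for 8 of the 32 genes, or 25%, while this held for 27.7% of all genes tested. Of the 32 genes, 17 had a positive and 15 a negative log2 fold change, and the median was 0.030, beside 0.0016 over all genes tested. For 22 of the 27 genes that did not pass the log2 fold change moved by more than 1.5 times or changed sign when 1 library was left out, and for 7 of these it changed sign, so their signs and sizes are given as measured and not as changes. Scaling by library totals only, without the TMM factors, moved the median of all genes to 0.075 and that of the 32 genes to 0.10, with 24 of the 32 positive. With the ribosomal RNA share as a covariate 24 of the 32 were positive as well. The split of calls over all genes was 668 higher and 810 lower with the TMM factors. With library totals only it was 896 higher and 279 lower. For the synthesis genes the split went from 4 higher and 1 lower with the TMM factors to 4 higher and 0 lower with library totals only.

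**Figure D1:**
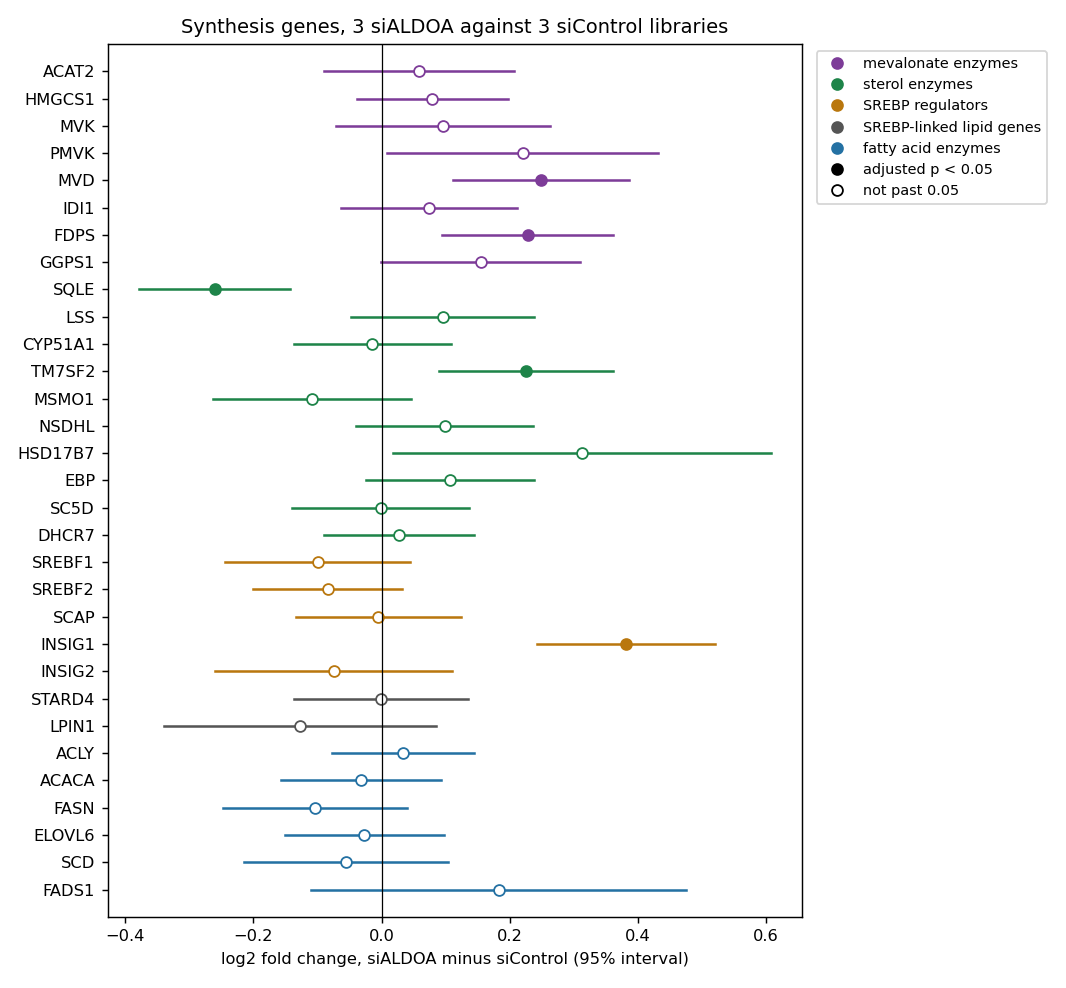
Log2 fold change of each tested gene, siALDOA minus siControl, with its 95% interval (x axis), genes grouped by role (y axis, colours). Filled circles mark an adjusted p < 0.05 in edgeR's quasi-likelihood test, which 5 genes reached. FADS2 (-0.83, with an interval of -2.05 to 0.39) is left out for scale and FDFT1 was not tested. The 8 mevalonate enzymes at the top all lie to the right of 0, and only ACAT2 crossed it in another setting, without siControl replicate 3.

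INSIG1, which holds the SREBP escort SCAP in the endoplasmic reticulum, showed the largest change among the 5. In siControl it was at 181, 175 and 157 CPM (171 ± 12.4, SD, n = 3). In siALDOA it was at 243, 214 and 212 CPM (223 ± 17.3). Every siALDOA library was above every siControl library. Its log2 fold change was 0.38 ± 0.067 (SE), with a 95% interval of 0.24 to 0.52 and an adjusted p of 7.03e-04, a rise of 30.2%. INSIG1 passed the threshold in all 18 alternative fits, including the 6 that each left out 1 library, with log2 fold changes of 0.31 to 0.48. Its gene lies on chr7:155297776-155310235 of hg38, on the forward strand.

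SQLE, one of the most abundant transcripts of the sterol branch, fell. The siControl libraries held 503, 497 and 452 CPM of SQLE (484 ± 27.7). The siALDOA libraries held 399, 408 and 406 CPM (404 ± 4.94). All 3 siALDOA values lay under the lowest siControl value, siControl replicate 3, and lay closer together than those of siControl. A log2 fold change of -0.26 ± 0.056 (95% interval -0.38 to -0.14, adjusted p = 0.00479) corresponded to a change of -16.5%. SQLE passed in 17 of 18 alternative fits, and with library totals only its log2 fold change was -0.18 with an adjusted p of 0.173.

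MVD decarboxylates mevalonate diphosphate, the step that yields the isoprene unit. Its level was nearly constant in siControl, at 43.3, 43.1 and 42.8 CPM (43.0 ± 0.282). In siALDOA it was at 49.4, 51.7 and 52.4 CPM (51.1 ± 1.58). The groups did not overlap. Its log2 fold change was 0.25 ± 0.066 (95% interval 0.11 to 0.39, adjusted p = 0.0186), a rise of 18.8%. The call was lost without siALDOA replicate 2 or 3 and without siControl replicate 2 or 3, with adjusted p-values of 0.0697, 0.0742, 0.0734 and 0.0890. It was also lost with the ribosomal RNA share as a covariate, where the log2 fold change was 0.24 (adjusted p = 0.0584).

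FDPS, the farnesyl diphosphate synthase, was at 89.6, 89.5 and 83.2 CPM in siControl (87.4 ± 3.67). It was at 109, 101 and 96.5 CPM in siALDOA (102 ± 6.54). The lowest siALDOA library was above the highest siControl library. Its log2 fold change was 0.23 ± 0.064 (95% interval 0.095 to 0.36, adjusted p = 0.0272), a rise of 17.1%. FDPS lost its call without siALDOA replicate 1 or 2 (adjusted p = 0.0711 and 0.0683) and without siControl replicate 2 or 3 (adjusted p = 0.0688 and 0.165). Of the annotated exon bases of FDPS, 18.6% are shared with RUSC1-AS1, and whether counting used strand is not given in the sources used here, so reads there cannot be told apart.

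TM7SF2 reduces a sterol intermediate after the ring has been closed. The values were 68.9, 65.1 and 67.3 CPM in siControl (67.1 ± 1.86) and 77.5, 84.0 and 73.8 CPM in siALDOA (78.4 ± 5.15). Here too the groups did not overlap, and the siALDOA libraries were the more spread. TM7SF2 had a log2 fold change of 0.22 ± 0.065 (95% interval 0.089 to 0.36, adjusted p = 0.0324). The call was lost without siALDOA replicate 2 (0.17, adjusted p = 0.173), without siControl replicate 2 or 3 (adjusted p = 0.145 and 0.110) and with the ribosomal RNA share as a covariate (0.22, adjusted p = 0.0664).

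**Figure D2:**
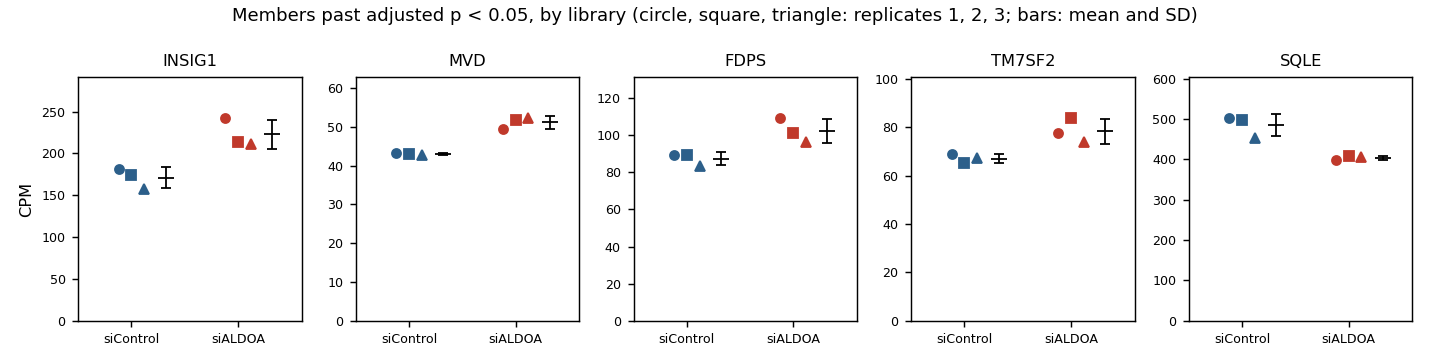
CPM (y axis, from 0) of the 5 genes with an adjusted p < 0.05 in each library (x axis, siControl in blue, siALDOA in red). Circles, squares and triangles are replicates 1, 2 and 3, and the bars are the mean and SD of each group. In every panel the groups are apart, with siALDOA above siControl for INSIG1, MVD, FDPS and TM7SF2 and below it for SQLE.

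**Figure D3:**
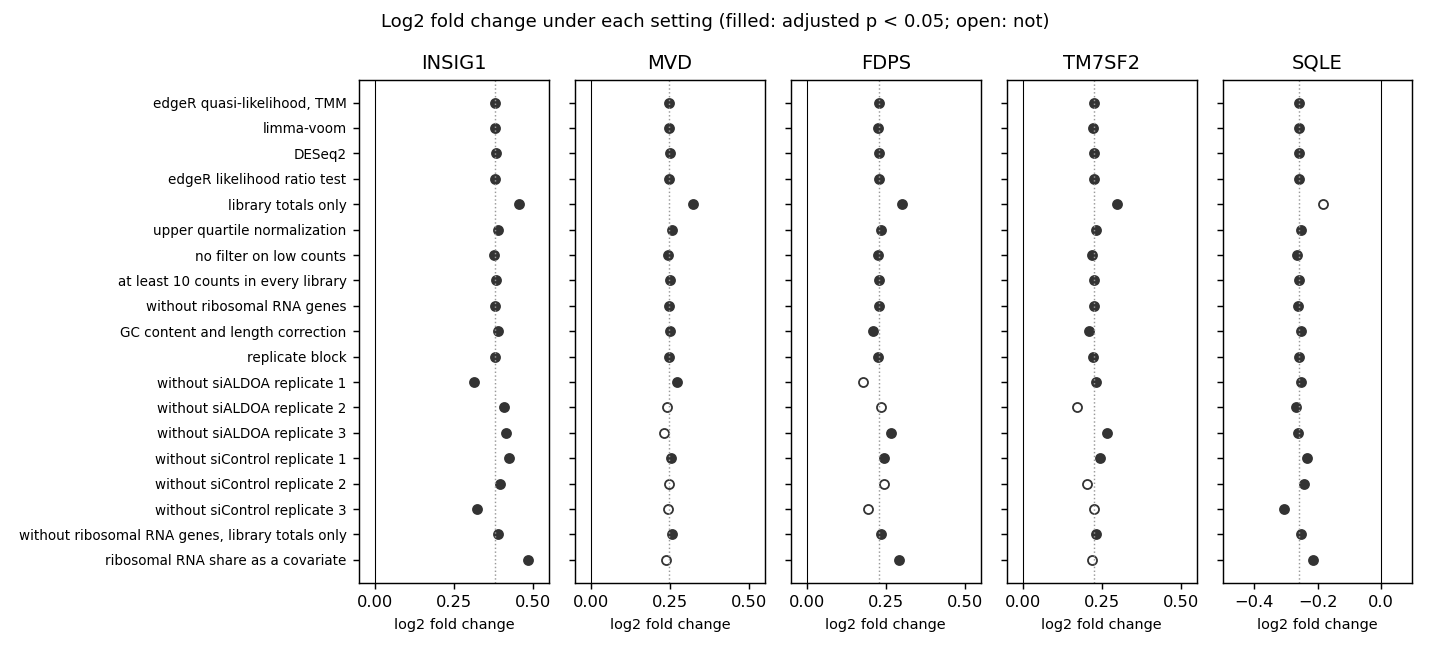
Log2 fold change, siALDOA minus siControl (x axis), of the same 5 genes in the reported fit and in each of the 18 alternative fits (y axis). Filled circles passed an adjusted p of 0.05 and open circles did not, and the dotted line is the reported value. INSIG1 is filled throughout and SQLE in 17 of 18 alternatives, while MVD, FDPS and TM7SF2 are open in 5, 4 and 4 of them, mostly where a library was left out.

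The promoters of the 4 genes that rose, and of SREBF2, are printed below because SREBP proteins bind DNA at sterol regulatory elements, usually beside sites for NF-Y and SP1. Sequences are from RefSeq (GRCh38.p14), from 250 bases before the start to 50 bases after it, and 29 of the 33 genes were matched, with 43 promoters in all, while ACAT2, FDFT1, SQLE and FASN were not. Capitals mark the letters searched, or their reverse complement, and neighbouring matches can overlap by a few bases. The letters were CCAAT for NF-Y, GGGCGG for SP1, CACGTG for an E-box, and TCACNCCAC for a sterol regulatory element. The windows are chr7:155297628-155297927 (forward strand) for INSIG1, chr16:88663042-88663341 (reverse strand) for MVD, chr1:155308616-155308915 (forward) for FDPS, chr11:65111622-65111921 (forward) for TM7SF2 and chr22:41832855-41833154 (forward) for SREBF2.
INSIG1: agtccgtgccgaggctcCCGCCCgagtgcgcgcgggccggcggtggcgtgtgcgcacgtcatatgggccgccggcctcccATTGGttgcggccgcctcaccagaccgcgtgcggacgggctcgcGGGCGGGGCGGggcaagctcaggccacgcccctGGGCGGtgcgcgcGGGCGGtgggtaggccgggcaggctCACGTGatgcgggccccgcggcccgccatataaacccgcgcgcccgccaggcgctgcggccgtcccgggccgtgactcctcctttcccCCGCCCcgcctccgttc
MVD: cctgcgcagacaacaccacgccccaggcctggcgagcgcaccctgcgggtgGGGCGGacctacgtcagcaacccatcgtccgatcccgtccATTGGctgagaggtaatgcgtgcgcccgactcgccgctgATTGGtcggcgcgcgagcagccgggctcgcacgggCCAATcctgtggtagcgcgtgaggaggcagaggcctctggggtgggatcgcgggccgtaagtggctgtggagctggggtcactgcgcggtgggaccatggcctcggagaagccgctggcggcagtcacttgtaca
FDPS: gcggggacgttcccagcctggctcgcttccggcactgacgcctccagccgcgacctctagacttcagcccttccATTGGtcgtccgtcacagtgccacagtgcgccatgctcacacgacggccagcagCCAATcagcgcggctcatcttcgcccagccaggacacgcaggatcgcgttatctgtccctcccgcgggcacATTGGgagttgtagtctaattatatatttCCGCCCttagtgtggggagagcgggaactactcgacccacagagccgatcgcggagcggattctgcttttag
TM7SF2: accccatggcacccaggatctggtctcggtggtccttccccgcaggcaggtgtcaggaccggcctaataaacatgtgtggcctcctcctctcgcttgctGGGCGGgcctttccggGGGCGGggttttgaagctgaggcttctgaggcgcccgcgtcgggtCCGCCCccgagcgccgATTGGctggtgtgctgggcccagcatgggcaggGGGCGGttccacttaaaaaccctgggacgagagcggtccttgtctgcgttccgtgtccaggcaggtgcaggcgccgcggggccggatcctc
SREBF2: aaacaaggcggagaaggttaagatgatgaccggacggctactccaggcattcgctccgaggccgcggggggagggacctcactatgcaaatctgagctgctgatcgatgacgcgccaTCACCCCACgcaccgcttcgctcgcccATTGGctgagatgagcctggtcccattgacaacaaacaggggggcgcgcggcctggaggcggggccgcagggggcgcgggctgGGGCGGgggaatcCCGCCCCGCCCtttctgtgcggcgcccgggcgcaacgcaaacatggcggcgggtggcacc

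The INSIG1 window held 6 matches to GGGCGG, 1 to CCAAT and 1 to CACGTG. MVD and FDPS each held 3 matches to CCAAT and 1 to GGGCGG, and TM7SF2 held 1 and 4. CCAAT was in 25 of the 43 promoters (58.1%), beside 34.6% of all 35116 promoters of the same length. GGGCGG was in 37 (86.0%), beside 45.0% of all, and CACGTG in 5 (11.6%), beside 7.26%. TCACNCCAC was found in the SREBF2 window only, which is 2.33% of the 43 promoters beside 1.13% of all. These matches are letters in a window and were not tested for binding.

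The mevalonate enzymes were described next as a group of 8. All 8 had a positive log2 fold change, beside 50.3% of all genes, with a median of 0.13, or 0.20 with library totals only. The 2 that passed the threshold, both higher, were MVD and FDPS, 25% of the 8 beside the 4.36% of all genes called higher. Without siControl replicate 3, 7 of the 8 stayed positive and ACAT2 turned negative. None of the 8 passed in edgeR's quasi-likelihood test without siALDOA replicate 2, siControl replicate 2 or siControl replicate 3. ACAT2, which joins acetyl-CoA units in the cytosol, was at 63.8 to 75.2 CPM in siControl and 71.2 to 78.4 CPM in siALDOA (log2 fold change 0.059, adjusted p = 0.680). ACAT2 shares 22.2% of its exon bases with other listed genes, among them TCP1 and SOD2.

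HMGCS1 makes the HMG-CoA that feeds the pathway and had the highest CPM of the mevalonate enzymes. It was at 183, 191 and 181 CPM in siControl and at 202, 197 and 187 CPM in siALDOA. The groups overlapped, and the log2 fold change of 0.079 had an adjusted p of 0.435. MVK is the kinase that phosphorylates mevalonate, and PMVK phosphorylates its product. PMVK was at 12.8, 14.4 and 14.7 CPM in siControl and 16.9, 16.1 and 15.9 CPM in siALDOA, with no overlap, a log2 fold change of 0.22 (95% interval 0.0087 to 0.43) and an adjusted p of 0.191. MVK had a log2 fold change of 0.096 (adjusted p = 0.519).

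IDI1, the isomerase that readies isoprene units for joining, had a log2 fold change of 0.074 (adjusted p = 0.547), and of 0.016 without siALDOA replicate 1 and 0.017 without siControl replicate 3. It shares 15.0% of its exon bases with IDI2-AS1. GGPS1, which lengthens farnesyl to geranylgeranyl diphosphate for protein prenylation, had a log2 fold change of 0.15 (adjusted p = 0.214), and of 0.091 without siALDOA replicate 1. The summed level of the 8 mevalonate enzymes was 626, 638 and 591 CPM in siControl and 706, 659 and 652 CPM in siALDOA, groups that did not overlap.

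Of the 10 sterol enzymes tested, TM7SF2 rose, SQLE fell and 8 did not pass, so 20% were called, beside the 9.66% of all genes. Log2 fold changes were positive for 6 of the 10, beside 50.3% of all genes, with a median of 0.061. With library totals only 8 of the 10 were positive (median 0.14), with the ribosomal RNA covariate 9 were (median 0.10), 8 were without siControl replicate 1 (median 0.099), and 5 were without siControl replicate 2 (median 0.025). The summed level of the sterol enzymes was 1548 ± 68.4 CPM in siControl and 1493 ± 13.9 CPM in siALDOA. HSD17B7, a sterol keto-reductase, had the highest value of the group at 0.31, with an interval of 0.017 to 0.61 and an adjusted p of 0.183. Without siControl replicate 2, its lowest library, the value was 0.17 (adjusted p = 0.553). It was at 8.34, 6.26 and 8.86 CPM in siControl and 9.05, 10.4 and 9.71 CPM in siALDOA, without overlap but at a low level.

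LSS, which folds squalene epoxide into lanosterol, directly follows SQLE in the pathway. Its log2 fold change was 0.096 (adjusted p = 0.436), between 0.048 without siControl replicate 3 and 0.18 without siControl replicate 1. The demethylation enzymes CYP51A1, MSMO1 and NSDHL had log2 fold changes of -0.014, -0.11 and 0.098, and their adjusted p-values were 0.915, 0.408 and 0.402. EBP, the sterol isomerase, had a log2 fold change of 0.11 (adjusted p = 0.324). SC5D, a late desaturase, and DHCR7, the reductase of the final step, had log2 fold changes of -0.0016 and 0.027 (adjusted p = 0.991 and 0.826). For DHCR7 the 95% interval ran from -6.06% to 10.5%, so a change as large as that of SQLE lay outside it.

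Among the 5 regulators, INSIG1 was the one that passed, or 20% called beside the 9.66% of all genes. SREBF2 was at 340, 321 and 343 CPM in siControl and 304, 315 and 328 CPM in siALDOA. The ranges overlapped, and the log2 fold change was -0.084 (95% interval -0.20 to 0.033, adjusted p = 0.396). SREBF1 was at 269, 269 and 296 CPM in siControl and at 228, 271 and 279 CPM in siALDOA. Its groups overlapped as well, with siALDOA replicate 1 the lowest. The log2 fold change of SREBF1 was -0.10 (95% interval -0.24 to 0.045, adjusted p = 0.419), and it passed only with the ribosomal RNA share as a covariate (-0.20, adjusted p = 0.0458). Without siALDOA replicate 1 its value was -0.016 (adjusted p = 0.902). SCAP was at 65.1, 62.5 and 63.8 CPM in siControl and at 62.4, 63.7 and 64.6 CPM in siALDOA. SCAP had a log2 fold change of -0.0051, with an interval of -0.13 to 0.12 and an adjusted p of 0.971. INSIG2, the paralog of INSIG1, had a log2 fold change of -0.075 (adjusted p = 0.670). The difference between INSIG1 and INSIG2 was not tested.

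STARD4 and LPIN1 are lipid genes linked to SREBP activity. STARD4, a carrier of cholesterol between membranes, was at 66.9, 66.2 and 62.6 CPM in siControl and at 61.1, 67.3 and 67.0 CPM in siALDOA. The groups overlapped almost fully and the log2 fold change was -0.0011 (adjusted p = 0.994). LPIN1, a phosphatidate phosphatase of triglyceride synthesis, had a log2 fold change of -0.13 (adjusted p = 0.496), which was -0.0058 without siControl replicate 1, -0.077 without siALDOA replicate 2 and -0.22 without siControl replicate 3.

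None of the 7 fatty acid enzymes passed the threshold in edgeR's quasi-likelihood test, and 0 of 7 had an unadjusted P below 0.05, beside 23.6% of all genes tested. The number past the adjusted threshold was also 0 with limma-voom, DESeq2 and each of the other alternative fits. Their median log2 fold change was -0.033, with 2 of 7 positive, and it was -0.015, -0.058 and -0.068 without siControl replicates 1, 2 and 3. Scaled by library totals only, 5 of 7 were positive and the median was 0.042. The summed level was 4897 ± 126 CPM in siControl and 4712 ± 108 CPM in siALDOA, and SCD made up most of it.

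FASN, the fatty acid synthase, was at 935, 838 and 923 CPM in siControl and at 758, 850 and 900 CPM in siALDOA. The lowest value was that of siALDOA replicate 1 and the other two siALDOA libraries lay within the siControl range. The log2 fold change of FASN was -0.10, with an interval of -0.25 to 0.040 and an adjusted p of 0.393, and without siALDOA replicate 1 it was -0.039 (adjusted p = 0.760). SCD, which puts the first double bond into saturated fatty acids, was the most abundant of the 33 genes. It was at 3183, 3104 and 3056 CPM in siControl and 2956, 3096 and 2940 CPM in siALDOA, with overlapping groups. SCD had a log2 fold change of -0.055 (95% interval -0.21 to 0.10, adjusted p = 0.722).

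ACLY turns citrate into cytosolic acetyl-CoA, the carbon source of both pathways, and its log2 fold change was 0.033 (adjusted p = 0.763). ACACA, the acetyl-CoA carboxylase, had a log2 fold change of -0.033 (adjusted p = 0.797). ELOVL6, which elongates palmitate, had a log2 fold change of -0.027 (adjusted p = 0.833). For ACLY, ACACA and ELOVL6 the 95% intervals lay within -10.3% and 10.5%.

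The desaturases of polyunsaturated fatty acids, FADS1 and FADS2, were the least abundant of the tested genes. FADS1 held 231, 217 and 207 counts in siControl and 201, 229 and 249 counts in siALDOA, or 7.41, 7.11 and 6.28 CPM against 7.22, 7.62 and 8.76 CPM. Its log2 fold change was 0.18 (95% interval -0.11 to 0.48, adjusted p = 0.473). FADS2 held 15, 13 and 17 counts in siControl and 1, 11 and 11 counts in siALDOA. The groups did not overlap, and the log2 fold change of -0.83 had an interval of -2.05 to 0.39 and an adjusted p of 0.428. The value depended on siALDOA replicate 1, with 1 count, and without that library the log2 fold change was -0.33 (adjusted p = 0.784). FADS1 and FADS2 also share some exon bases with each other.

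**Figure D4:**
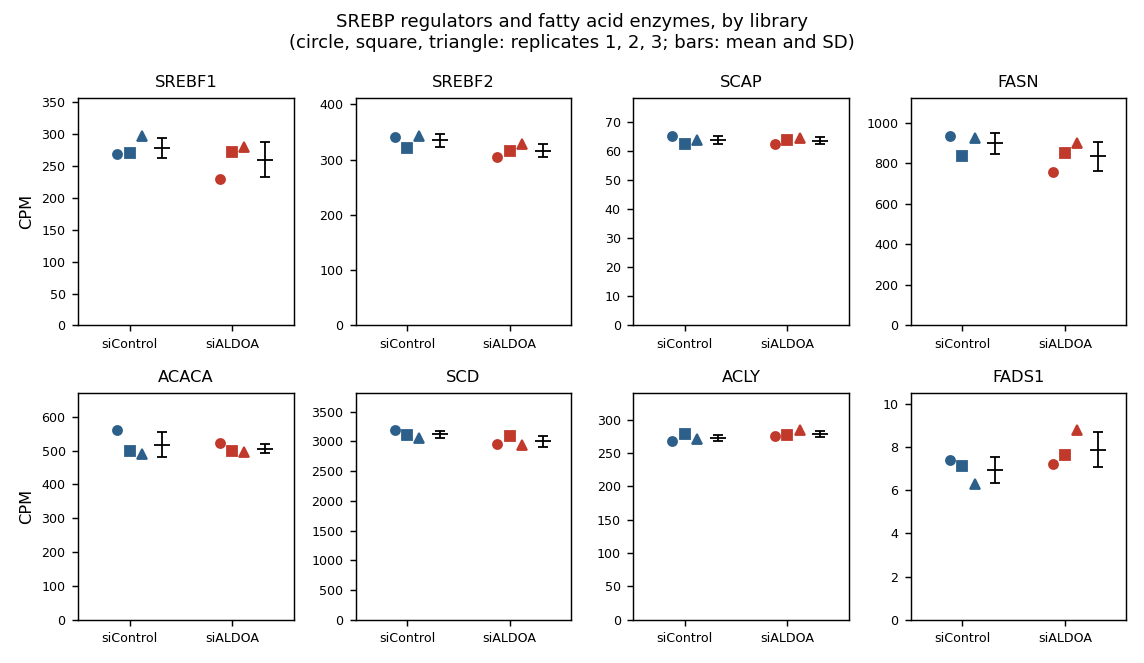
CPM (y axis, from 0) in each library (x axis, siControl in blue, siALDOA in red) of 3 regulators, SREBF1, SREBF2 and SCAP, and 5 fatty acid enzymes, FASN, ACACA, SCD, ACLY and FADS1. Symbols are replicates 1, 2 and 3 and the bars are the mean and SD. The groups overlap in all 8 panels, and siALDOA replicate 1 is the lowest library for SREBF1, SREBF2, FASN and, by a narrow margin, SCAP.

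Levels were also set side by side per kilobase of the GENCODE canonical transcript. SCD was the highest at 583 CPM per kb, followed by SQLE at 150, DHCR7 at 124 and FASN at 102 CPM per kb. INSIG1 stood at 67.7 and FDPS at 67.0 CPM per kb, near ACLY at 64.2, SREBF2 at 62.1, EBP at 61.2 and CYP51A1 at 59.9 CPM per kb. At the low end were FADS1 with 1.70 and FADS2 with 0.119 CPM per kb. The highest genes thus came from the sterol and the fatty acid branch alike, and only SQLE of the top 4 passed the test.

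The libraries of a group were not equal for these genes. Of the 3 siControl libraries, replicate 1 was the highest for 23 of the 32 genes, or 71.9%, while it was the highest for 34.4% of all genes tested. Its median log2 difference to the other two was 0.064 over the 32 genes and -0.0044 over all genes. Replicate 3 was the lowest siControl library for 18 of the 32 genes, or 56.2%, while this held for 30.0% of all genes tested. These libraries also held the highest and the lowest ribosomal RNA share of the siControl group, 17.4% and 8.15%, respectively. With the share as a covariate INSIG1, FDPS and SQLE passed and MVD and TM7SF2 did not, and with the ribosomal RNA genes left out all 5 passed. Without siControl replicate 1 the median log2 fold change of the 32 genes was 0.054, and without replicate 3 it was 0.0055.

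Other genes around the pathways were read from 4 lists, of which 65 of 73 genes were tested. With siALDOA 5 of them rose and 1 fell, 9.23% of those tested beside the 9.66% of all genes. Of the 11 genes for SREBP processing and its cofactors, none passed an adjusted p of 0.05 in edgeR's quasi-likelihood test, 8 were negative and the median was -0.13. With library totals only 6 were negative and the median was -0.053, and it was -0.051 without siALDOA replicate 1 and -0.077 without siControl replicate 2. An unadjusted P below 0.05 was reached by 3 of the 11, or 27.3% beside the 23.6% of all genes, limma-voom and DESeq2 called 0, and the fit with the ribosomal RNA covariate called 1. Among those with the smallest p-values were NFYA, a subunit of the NF-Y cofactor, at -0.20 (adjusted p = 0.0784), and SP1 at -0.13 (adjusted p = 0.184).

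Cholesterol handling and LXR target genes held 1 that rose and 1 that fell among 16 tested, or 12.5% called beside the 9.66% of all genes, and CH25H was listed at 0. LIPA, the lysosomal lipase that frees cholesterol from its esters, was at 65.6, 65.6 and 65.7 CPM in siControl and at 91.3, 89.9 and 93.1 CPM in siALDOA. The groups were far apart, with a log2 fold change of 0.48 ± 0.059 (adjusted p = 1.33e-05), and LIPA passed in all 18 alternatives. ABCG1, a cholesterol exporter, was at 44.4, 43.3 and 47.9 CPM in siControl and 39.2, 36.1 and 36.5 CPM in siALDOA. Its log2 fold change was -0.28 (adjusted p = 0.0159), and it did not pass with library totals only or without siALDOA replicate 2, siALDOA replicate 3 or siControl replicate 3.

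In the isoprenoid branch, 1 of 12 genes (8.33%) rose, beside the 4.36% of all genes called higher. It was FNTB, the beta subunit of farnesyltransferase, with a log2 fold change of 0.36 (adjusted p = 0.0304). With 1 library removed at a time, FNTB passed only without siALDOA replicate 3, and its adjusted p reached 0.124 without siALDOA replicate 1. Of 26 tested genes of other fatty acid and glycerolipid synthesis, 3 rose and 0 fell, or 11.5% called beside the 9.66% of all genes. The number called in this list was 0 without siControl replicate 2 and 6 with the likelihood ratio test. They were SLC25A1, the mitochondrial citrate carrier, at 0.21 (adjusted p = 0.0160), ACSL5, an acyl-CoA synthetase, at 0.19 (adjusted p = 0.0447), and AGPAT1, an acyltransferase of phosphatidate synthesis, at 0.30 (adjusted p = 0.0105). All 3 lost their call without siControl replicate 2. SLC25A1 also lost it without siALDOA replicate 2 or siControl replicate 3, AGPAT1 without siALDOA replicate 3, and ACSL5 with any library left out other than siControl replicate 1. DGAT1, ELOVL2 and ELOVL4 were listed at 0 in all 6 libraries, which is no sign that the cells lacked them.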

How the data were processed

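RNA-Seq counts of 6 HT29 libraries, 3 siALDOA and 3 siControl, were used. Alignment by the authors was to hg38 with TopHat2, gene counts came from gfold, and the deposited counts are whole numbers per gene symbol without normalization. The annotation, strand setting and treatment of reads with several matches are not given in the sources used here. Replicates in the labels are biological, but separate cultures are not described, so p-values measure the spread between these libraries.

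Genes were tested in R 4.3.3 with edgeR 4.0.16 (filterByExpr, TMM normalization, quasi-likelihood F-test), and p-values were adjusted by Benjamini-Hochberg over all 15307 genes tested. CPM used the TMM factors, standard errors (SE) were obtained as log2 fold change over the root of F, and intervals are 95%. Gene coordinates and transcript lengths came from GENCODE release 44 and promoters from RefSeq, read with python 3.11.15. Figures were drawn with matplotlib 3.10.9.

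The synthesis genes and the other lists were chosen with earlier results of these data known. Library values are given for synthesis genes with an adjusted p < 0.05, for the gene with the highest mean CPM of each role and for the main regulators and fatty acid enzymes. PMVK and HSD17B7 were given by library after their values were seen. Of the other lists, genes past the threshold were named, or else the 3 with the smallest p, of which 1 is not reported here.

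The alternatives were limma-voom (limma 3.58.1), DESeq2 1.42.0, edgeR's likelihood ratio test, upper quartile normalization, library totals only, no filter, at least 10 counts in every library, no ribosomal RNA genes, a correction for GC content and length, a block on the replicate number and 6 fits that left out 1 library each. For counts of genes, the unadjusted P of 0.01 was also used. Added after the data were seen were library totals without ribosomal RNA genes and the ribosomal RNA share as a covariate.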

Additional observations from a re-analysis of the deposited data

How the results depend on the processing

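Of the 32 tested genes, 27 kept their side of the threshold in every alternative that gave them an adjusted p. For 26 of these that was all 18, while FADS2 was not tested with at least 10 counts in every library and had no adjusted p in DESeq2. None of the 5 called genes changed sign. The number of synthesis genes higher in siALDOA was 4, and 1 to 4 when a library was left out, falling to 1 without siALDOA replicate 2, siControl replicate 2 or siControl replicate 3. It was 2 with the ribosomal RNA share as a covariate. The number lower was 1, and 1 in each fit with a library left out. It was 0 with library totals only and 2 with the covariate. Of the other 4 lists, 5 genes were higher, and 8 with DESeq2, 9 with the likelihood ratio test, library totals only, no filter, the GC content and length correction or the unadjusted P of 0.01, and 1 to 6 with a library left out. The number lower was 1, and 0 with library totals only, 2 with the covariate or the unadjusted P, and 0 to 1 with a library left out. It was 0 without siALDOA replicate 2, siALDOA replicate 3 or siControl replicate 3. ALDOA ranged from -1.19 to -1.06. The causes were not tested.

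Samples with the same replicate number correlated at 0.035, 0.027 and 0.026 in their deviations from the group means, all under 0.1, so the numbers were not taken to pair the samples. Every library correlated best with its own number, a hint from the data only. With a replicate block, 2162 of all genes passed against 1478. The synthesis genes stayed at 4 higher and 1 lower, the other lists were at 9 higher and 1 lower, and ALDOA was at -1.13. Each value rests on 3 libraries per group.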
